A study of Glycine soja with 14 samples.

Results

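The lipoxygenases of wild soybean roots were followed through a day of alkaline stress. Members were the soybean probe sets whose single gene symbol in the platform annotation begins with LOX and a digit or with VLX. The rule found 17 of the 37594 soybean probe sets on the array, of which 8677 carry a single symbol. The 17 probe sets stand for 8 genes: LOX9 had 5, LOX7 had 4, LOX3 and VLXB had 2 each, and LOX1.1, LOX2, LOX10 and VLXC had 1 each.

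Lipoxygenases are iron enzymes that add oxygen to polyunsaturated fatty acids such as linoleic and linolenic acid. The resulting hydroperoxides are the start of the oxylipins, among them jasmonate, which is made through allene oxide synthase and allene oxide cyclase. In soybean, LOX1.1, LOX2 and LOX3 encode the lipoxygenases that accumulate in the seed, and the VLX symbols stand for vegetative lipoxygenases.

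Transcripts were measured in Glycine soja line G07256, the wild relative of the cultivated soybean for which the Affymetrix Soybean Genome Array was designed. Seedlings were moved into 50 mmol/L NaHCO3 (pH 8.5) and the apical 3 cm of the root was taken before stress (0 h, the unstressed control), early (after 0.5, 1 and 3 h) and late (after 6, 12 and 24 h). Each of the 7 times had 2 biological replicates, each a pool of roots from 3 plants, which gave 14 arrays. No unstressed plants were sampled at the later hours, so hours of stress and hour of the day cannot be told apart, and a change in the mix of root cells cannot be told apart from a change per cell. Plants were 21 days old with 12 h of light a day per the labels, while the methods of the study give a smaller number of days and a longer light period.

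The median intensity of an array lay between 13.7 and 17.4, and between 75.7 and 78.0% of the soybean probe sets were above background on each array. Replicates of a time correlated at 0.931 to 0.984 over the tested probe sets. The spiked hybridization controls averaged 9.03 on the log2 scale on 0.5 h replicate 1 and 8.90 on 12 h replicate 2, and from 9.74 to 10.5 on the other 12 arrays. The 18S rRNA probe sets averaged 10.0 and 10.5 at 3 h and 11.2 and 11.1 at 6 h, above the 8.54 and 8.04 at 0 h. Defining root genes (SHR, SCR, PLT, WOX5) matched no annotated symbol, so the tissue could not be checked by them. Of 16 seed markers 3 were above background, all of them trypsin inhibitor probe sets (KTI-2 and KTI-3), and the storage globulins were below it. Of the leaf markers 7 of 10, and of the nodule markers 4 of 4, were above background.

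Of the 17 lipoxygenase probe sets, 13 from 5 genes were tested and 4 were not (the plot of all 17 against background shows which). Background was set at an intensity of 15.1, or 3.91 on the log2 scale, which is the 95th percentile of the 23350 probe sets for soybean pathogens on the same array. A probe set was tested where its mean over the 14 arrays lay above it and its replicates varied by less than the limit of the study, as held for 28567 soybean probe sets. The 4 that were not tested were the seed lipoxygenases LOX1.1, LOX2 and LOX3, none of which rose above background on any array. The LOX1.1 probe set ranged from 1.98 to 12.1, LOX2 from 2.72 to 14.2, and LOX3 from 2.34 to 8.77 on one probe set and from 3.67 to 10.1 on the other. The seed lipoxygenases thus had no measured level at any time of stress. Among the 13 tested, 11 were above background on all 14 arrays and 2 (LOX7 Gma.10969.1.S1_at and LOX9 GmaAffx.81415.1.S1_at) on 12 of 14.

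**Figure D1:**
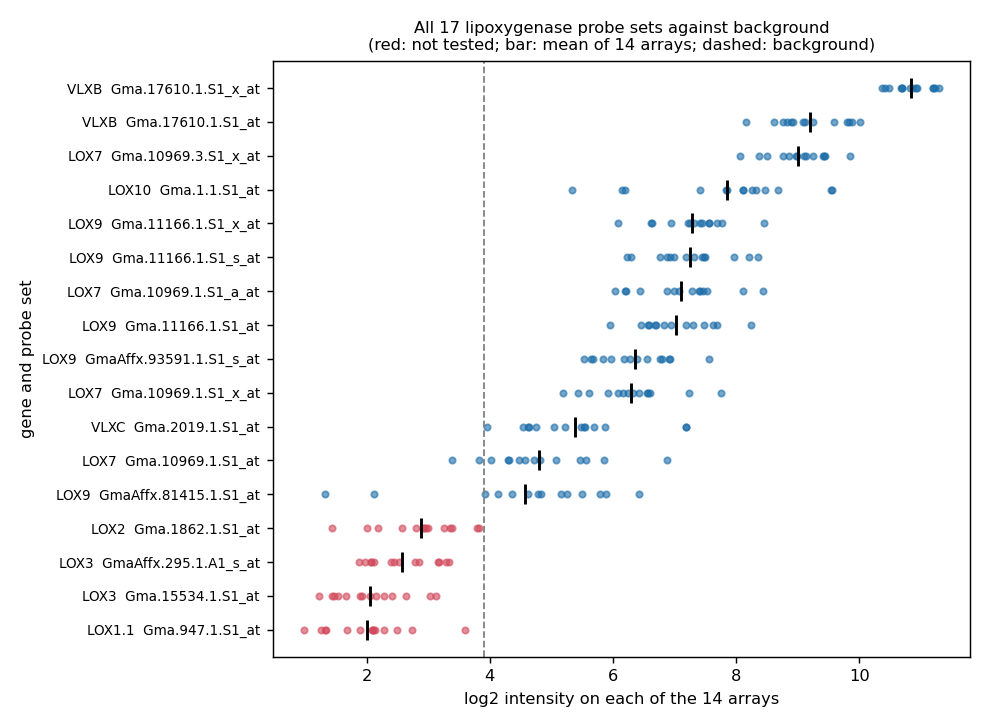
Log2 intensity (x axis) of each of the 17 lipoxygenase probe sets (y axis) on the 14 arrays, with a bar at the mean of the 14 and a dashed line at background (3.91). The 4 seed lipoxygenase probe sets in red lie wholly below background, and the 13 tested probe sets in blue have means above it.

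At 6 h 10 of the 13 tested lipoxygenase probe sets were called higher. All 13 tested probe sets had a higher mean at 6 h than at 0 h, by 0.58 to 2.12 on the log2 scale, and for all 13 both arrays at 6 h lay above both arrays at 0 h, a separation found in 27.8% of all tested probe sets. The 10 calls compare with 8.67% of all tested probe sets called higher at 6 h, and no lipoxygenase was called lower. The median change was 1.20 for the 13 and -0.05 for all tested probe sets. A probe set was called where limma, fitted to all 14 arrays with 7 time groups, gave p below 0.05 and a Benjamini-Hochberg adjusted p below 0.15 over all tested probe sets, which are the limits of the study. The 10 called belonged to VLXC, LOX10, LOX7 (4 of 4), VLXB (2 of 2) and LOX9 (2 of 5), so that all 5 measurable genes were up-regulated on at least 1 probe set. The number called fell to 3 without 0 h replicate 1 or 6 h replicate 1 and to 5 without 6 h replicate 2, where the share of all tested probe sets called higher was 3.97, 3.71 and 3.22%. The 3 whose call held when any single array was left out were VLXC and 2 of LOX7. The unmoderated test named in the methods of the study, which takes the spread from the arrays of both times alone, called none of the 13 at 6 h. It called 1.58% of all tested probe sets higher. The study itself reports lipoxygenases as up-regulated at 6 h. This run of the test, with Benjamini-Hochberg adjustment in place of the study's q value, did not reproduce that report. Other values moved between 0 h and 6 h as well. The 18S rRNA signal was higher at 6 h, as it was at 3 h. The summed intensity of the 10 leaf markers was 7816 and 5782 at 0 h and 2389 and 2041 at 6 h, that of the 16 seed markers 2165 and 3408 against 8068 and 8346, and that of the 4 nodule markers 1808 and 1781 against 1690 and 1308. The part of these values in the result was not tested.

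At the other times few lipoxygenase calls were made, and 10 of the 13 were called at 1 or more stress times, against 52.9% of all tested probe sets. At 0.5 h only LOX10 was called, as down-regulated, against 3.27% of all tested probe sets called lower. At 1 h and 3 h limma called no lipoxygenase, against 0.553 and 17% of all tested probe sets in either direction, and 2 and 0 of the 13 had an unadjusted p below 0.05. At 12 h 3 probe sets of LOX7 and VLXB were called higher, against 7.95% of all, and at 24 h 2 of the same genes, against 6.07% of all. None was called lower from 3 h to 24 h, while 16.4% of all tested probe sets were called lower at 12 h and 19.6% at 24 h. With 0 h replicate 1 left out, no lipoxygenase was called at 12 h or 24 h. The 12 h count also fell to 1 without 12 h replicate 2, and the 24 h count to 0 without 24 h replicate 2 and to 1 without 24 h replicate 1 or either 6 h array, while it rose to 4, of which 1 was lower, without either 12 h array. The 0.5 h count was 2, both lower, without either 1 h array or either 12 h array.

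**Figure D2:**
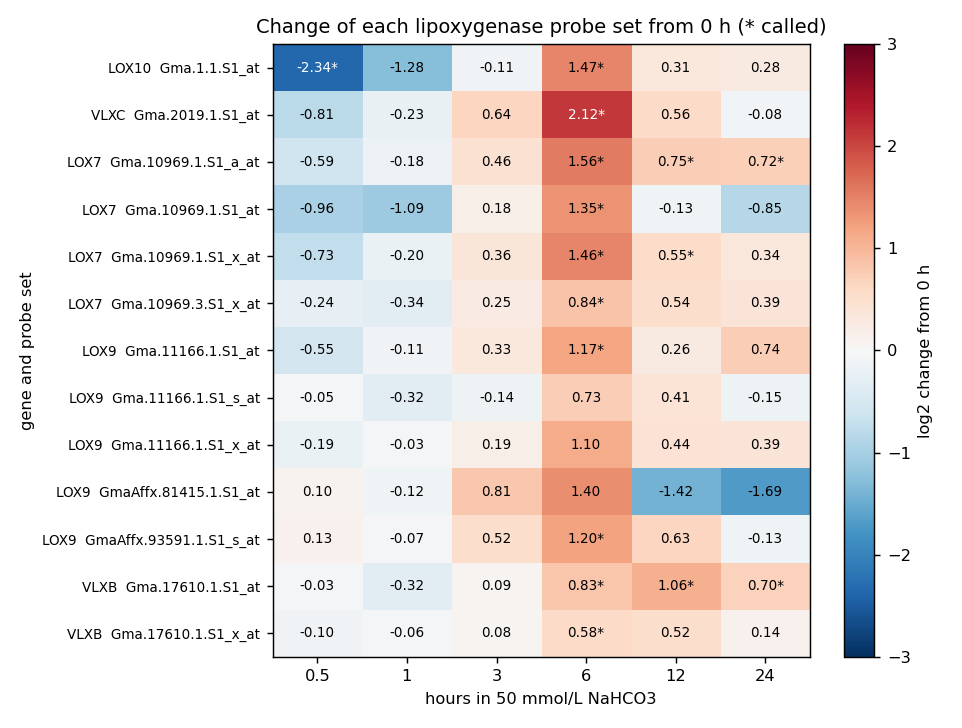
Log2 change from 0 h of the 13 tested lipoxygenase probe sets (rows) at the 6 stress times (columns), from the mean of 2 arrays per time, with an asterisk where the change was called. The 6 h column holds 10 of the asterisks and positive values from 0.58 to 2.12 throughout, and the only called fall is LOX10 at 0.5 h (-2.34).

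LOX10 (Gma.1.1.S1_at) fell first and rose later. Its intensity was 229 and 321 on the 2 arrays before stress, 40.3 and 70.8 after 0.5 h, 171 and 72.9 after 1 h, 275 and 229.6 after 3 h, 755 and 747 after 6 h, 277 and 409 after 12 h, and 355 and 305 after 24 h. Both 0.5 h arrays lay below every other array of LOX10, and both 6 h arrays above every other. The fall at 0.5 h was -2.34 on the log2 scale (SE 0.39, n = 2 per time, limma adjusted p = 0.0243), or 5.08-fold lower. The rise at 6 h was 1.47 (SE 0.39, adjusted p = 0.0421), or 2.77-fold. From 3 h to 6 h the gene gained 1.58 (adjusted p = 0.0520), and it then fell by 1.16 from 6 h to 12 h (adjusted p = 0.0659). Against 0 h, LOX10 was the single lipoxygenase called in both directions. In the order of its means (6, 12, 24, 0, 3, 1 and 0.5 h) the neighbours 6 and 12 h and the neighbours 3 and 1 h were called different, and no other neighbours were. The fall at 0.5 h was not called without 0 h replicate 2 (-2.10, adjusted p = 0.154, over a range of 0.0146 to 0.506 across the alternatives). The 6 h rise was not called without 0 h replicate 1 (1.23, adjusted p = 0.223), 6 h replicate 1 (0.168) or 6 h replicate 2 (0.175), over a range of 0.0186 to 0.223. The 0.5 h replicate with low hybridization controls gave 40.3, and the change without it was called too.

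VLXC (Gma.2019.1.S1_at), a vegetative lipoxygenase, showed the largest rise at 6 h among the 13 probe sets. Its intensity was 24.9 and 44.7 before stress, 23.3 and 15.5 after 0.5 h, 33.0 and 24.6 after 1 h, 58.6 and 46.0 after 3 h, 145 and 145 after 6 h, 51.9 and 46.8 after 12 h, and 26.8 and 37.2 after 24 h. The lowest value lay just above background, and the 6 h pair stood clear of every other array. The rise at 6 h was 2.12 (SE 0.31, adjusted p = 0.00339), or 4.36-fold, and it was called whichever single array was left out. From 3 h to 6 h VLXC gained 1.48 (adjusted p = 0.0281). From 6 h to 12 h it fell by 1.56 (SE 0.31, adjusted p = 0.00748), a call that held under all 21 alternatives run for it. By 24 h the level differed from 0 h by -0.08 (SE 0.31, adjusted p = 0.892). Of the neighbours in the order of its means (6, 3, 12, 0, 24, 1 and 0.5 h) only 6 h and 3 h were called different.

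LOX7 was read by 4 probe sets, all of them called higher at 6 h. On Gma.10969.1.S1_a_at, whose suffix marks a design for several transcripts of 1 gene, the intensity was 86.5 and 128 before stress, 73.9 and 65.6 after 0.5 h, 117 and 72.9 after 1 h, 156 and 134 after 3 h, 346 and 277 after 6 h, 184 and 169.7 after 12 h, and 169 and 177 after 24 h. The 6 h pair stood above all other arrays, and the 12 h and 24 h pairs stayed above the 0 h pair. The change was 1.56 at 6 h (SE 0.25, adjusted p = 0.00536), 0.75 at 12 h (adjusted p = 0.0818) and 0.72 at 24 h (adjusted p = 0.0901). LOX7 on this probe set thus remained called at 3 successive times. The 12 h and 24 h calls were lost without 0 h replicate 1 (0.47 and 0.44), without either array of their own time (0.69 and 0.81 at 12 h, 0.75 and 0.69 at 24 h), and the 6 h call was not lost without any single array.

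The other LOX7 probe sets gave the same direction at 6 h with unequal sizes. Gma.10969.1.S1_x_at, where x marks probes that may cross-hybridize, rose by 1.46 (SE 0.23, adjusted p = 0.00459), from 60.5 and 71.2 at 0 h to 216 and 150.5 at 6 h. Gma.10969.1.S1_at rose by 1.35 (SE 0.46, adjusted p = 0.0959), from 23.9 and 43.9 to 117 and 57.9, and was below background on 1 array at 0.5 h (14.1) and 1 at 1 h (10.5). Gma.10969.3.S1_x_at rose by 0.84 (SE 0.30, adjusted p = 0.112), from 362 and 552 to 922 and 698. The 4 therefore separated the times in the same way at 6 h but not at 24 h, where their changes ran from -0.85 on Gma.10969.1.S1_at to 0.72 on Gma.10969.1.S1_a_at. The first of the 3, Gma.10969.1.S1_x_at, was also called at 12 h (0.55, adjusted p = 0.147), close to the limit. That 12 h call was lost in 14 of 22 alternatives. Without 0 h replicate 1 the 6 h changes were 0.91 on Gma.10969.1.S1_at and 0.54 on Gma.10969.3.S1_x_at, and without 6 h replicate 1 they were 0.84 and 0.64, none of them called. Without 6 h replicate 2 the change on Gma.10969.3.S1_x_at was 1.05, also not called.

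LOX9 was read by 5 probe sets, of which 2 were called higher at 6 h. On Gma.11166.1.S1_at the intensity was 94.8 and 122 before stress, 87.4 and 61.6 after 0.5 h, 96.2 and 104 after 1 h, 178 and 102 after 3 h, 301 and 196 after 6 h, 146 and 114 after 12 h, and 158 and 205 after 24 h. The 6 h pair stood above the 0 h pair, but 1 of its arrays lay below 1 array at 24 h. The rise at 6 h was 1.17 (SE 0.31, adjusted p = 0.0420), and it was not called without 0 h replicate 1 (0.99) or 6 h replicate 1 (0.86). GmaAffx.93591.1.S1_s_at, where s marks probes shared by several transcripts, rose by 1.20 (SE 0.44, adjusted p = 0.117), and it was not called without 0 h replicate 1 (0.84), 6 h replicate 1 (0.87) or 6 h replicate 2 (1.53). The other 3 LOX9 probe sets had 6 h changes of 0.73 (Gma.11166.1.S1_s_at), 1.10 (Gma.11166.1.S1_x_at) and 1.4 (GmaAffx.81415.1.S1_at) that did not pass the test. At 0.5 h Gma.11166.1.S1_s_at read 250.4 on one array and 78.6 on the other, on either side of the 121 and 175 at 0 h. At 12 h GmaAffx.81415.1.S1_at read 37.9 on replicate 1 and 2.5 on replicate 2, the array with low hybridization controls. Its called fall from 6 h to 12 h (-2.83, SE 1.04, adjusted p = 0.0839) was -0.87 without that array and was then not called. At 24 h GmaAffx.81415.1.S1_at read 4.34 and 15.1, against 24.7 and 27.6 at 0 h. That change of -1.69 was not called, and Gma.11166.1.S1_at went the other way at 24 h (0.74, not called).

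VLXB, the other gene with a VLX symbol, had its highest mean later on 1 of its 2 probe sets. On Gma.17610.1.S1_at the intensity was 389.6 and 555 before stress, 434 and 477 after 0.5 h, 484 and 287 after 1 h, 452 and 545 after 3 h, 889 and 773 after 6 h, 1033 and 915 after 12 h, and 609 and 939 after 24 h. All arrays from 6 h on lay above all arrays up to 3 h. The change was 0.83 at 6 h (SE 0.29, adjusted p = 0.10), 1.06 at 12 h (SE 0.29, adjusted p = 0.0371, 2.09-fold) and 0.70 at 24 h (SE 0.29, adjusted p = 0.140). Among the 13 it was the only probe set with its highest mean at 12 h. On Gma.17610.1.S1_x_at the pair at 0 h was 1364 and 1955 and the pair at 6 h 2501 and 2389, a rise of 0.58 (SE 0.22, adjusted p = 0.123). From 6 h to 12 h the changes of the 2 probe sets were 0.23 and -0.06, and neither was called. Without 0 h replicate 1 the changes on Gma.17610.1.S1_at were 0.58, 0.81 and 0.45 at the last 3 times, and the 6 h change on Gma.17610.1.S1_x_at was 0.32, none of them called. The 6 h calls of both were also lost without 6 h replicate 1 (0.73 and 0.55) or 6 h replicate 2 (0.93 and 0.62), and the 24 h call without 24 h replicate 2 (0.39). In all, the 24 h call was lost in 13 of 22 alternatives. One further probe set, GmaAffx.93553.1.S1_s_at, carries the symbols VLXB, LOX7 and LOXB1 at once and was no member. Its 6 h change was 1.07 (SE 0.31, adjusted p = 0.0537).

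**Figure D3:**
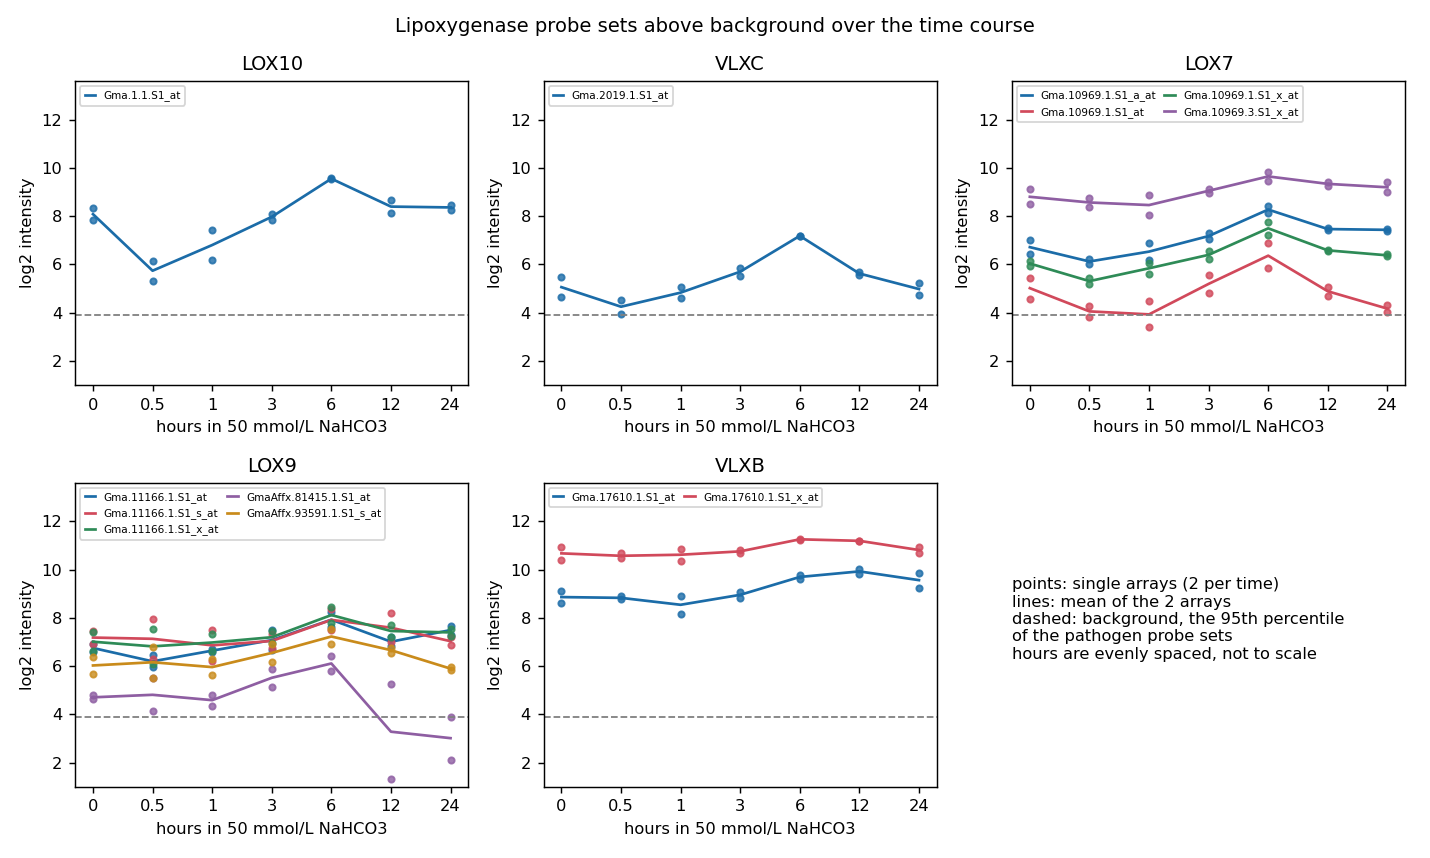
Log2 intensity (y axis) of the 13 tested lipoxygenase probe sets over hours in 50 mmol/L NaHCO3 (x axis, evenly spaced), 1 panel per gene, with points for single arrays, lines for the mean of 2 arrays and a dashed line at background. LOX10 dips at 0.5 h and peaks at 6 h, and 1 VLXB probe set has its highest mean at 12 h. VLXC and all probe sets of LOX7 and LOX9 have their highest mean at 6 h. On no LOX9 probe set was 6 h called different from the next highest time.

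Between successive times, calls of lipoxygenases were for higher levels from 1 h to 6 h and for lower levels from 6 h to 12 h. From 0.5 h to 1 h limma called none, against 1.54% of all tested probe sets in either direction, and 2 had an unadjusted p below 0.05. From 1 h to 3 h all 13 means went up and 3 were called higher (LOX10 by 1.17, LOX7 Gma.10969.1.S1_at by 1.26 and VLXC by 0.87), against 5.51% of all. None of these 3 calls held without 1 h replicate 2 or either 3 h array. From 3 h to 6 h all 13 again went up and 4 were called higher (LOX10, VLXC and 2 of LOX7), against 8.05% of all. That count was 0 without 3 h replicate 2, 1 without 6 h replicate 1 and 2 without 6 h replicate 2. From 6 h to 12 h 12 of 13 means went down and 7 were called lower, with a median of -0.81 against 0.00 over all tested probe sets, and against 18.6% of all called lower. The 7 were VLXC, LOX10, 3 of LOX7 and 2 of LOX9, with 1 left without 6 h replicate 1 (VLXC) and 4 without 12 h replicate 2. From 12 h to 24 h limma called none, against 31.9% of all in either direction, and 0 had an unadjusted p below 0.05.

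The highest of the 7 means fell at 6 h for 12 of the 13 probe sets, against 17% of all tested probe sets, and at 12 h for 1, against 21.3%. The lowest mean fell at 0.5 h for 7 (11% of all), at 1 h for 4 (4.23%) and at 24 h for 2 (26.5%). Over the whole time course, a spline of 4 degrees of freedom called none of the 13 at an adjusted p below 0.001, the limit of the study, against 2.7% of all tested probe sets. LOX10 came nearest (adjusted p = 0.00157), and 10 of 13 had an unadjusted p below 0.05, against 41.1% of all. A moderated F test over the 7 times at the same limit likewise called 0 of 13, against 4.5% of all.

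The 5 genes resembled each other in shape to different degrees. Over the 7 time means, each gene taken as the mean of its centred probe sets, the Pearson correlation was highest between LOX7 and VLXC (0.97) and lowest between LOX9 and VLXB (0.52). The low value rests on the LOX9 probe set GmaAffx.81415.1.S1_at, which read 2.5 on 1 of the 12 h arrays and 4.34 and 15.1 at 24 h. Without this probe set LOX9 and VLXB correlated at 0.84. LOX7 and LOX9 then had the highest value (0.98), and VLXB and VLXC the lowest (0.69). Within LOX7 the probe sets correlated at 0.77 to 0.98, within LOX9 at 0.13 to 0.93, and the 2 of VLXB at 0.90. These values describe 7 shared time points read on the same 14 arrays, and probe sets of 1 gene share sequence. Some may also read more than 1 gene. Over the 14 arrays LOX7 Gma.10969.3.S1_x_at correlated at 0.93 with VLXB Gma.17610.1.S1_x_at and at 0.71 to 0.90 with the other LOX7 probe sets. How far shared sequence enters the values between genes was not tested. The 3 most similar profiles to each gene were sought among 7372 other annotated probe sets. For VLXC they were F3H, the flavanone hydroxylase of flavonoid synthesis (0.99), LOC100791502 (0.98) and LOC100781643 (0.97). For LOX10 they were LOC100500325, the allene oxide cyclase AOC6 and CYP34 (each 0.96), and for LOX7 LOC100796092, OAS-TL1 (both 0.98) and LOC100791502 (0.97). For LOX9 they were LOC100781643 (0.99), LOC100801794 and LOC100194421 (both 0.98), and for VLXB LOC100794342, LOC100776175 and LOC100500327 (each 0.99). Of these 15 profiles 10 were called higher at 6 h, against 8.67% of all tested probe sets, and 5 were not called. LOC100791502 counts under both LOX7 and VLXC, on the same probe set. The changes ran from 0.25 (LOC100776175, limma adjusted p = 0.662) to 3.72 (F3H, SE 0.33, adjusted p = 0.000364). The profiles were picked for likeness to genes that were mostly highest at 6 h, so their rise is no separate result.

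Genes listed around the lipoxygenases in the oxylipin pathway, from fatty acid desaturases to a jasmonate receptor subunit, were called in both directions. The list held 22 probe sets, 20 of them tested: the allene oxide synthases AOS1 and AOS2, the allene oxide cyclases AOC3, AOC4 and AOC6, the jasmonate receptor subunit COI1, the plastid omega-3 desaturases FAD7-2 and FAD8.2, and LOXB1, a lipoxygenase symbol outside the rule. At 0.5 h 2 were called higher and 4 lower, against 2.26 and 3.27% of all tested probe sets, at 1 h 2 were lower, against 0.375%, and at 3 h 2 were higher and 2 lower, against 5 and 12%. At 6 h 4 were called higher and 2 lower, against 8.67 and 12.1%. At 12 h 2 were higher and 7 lower, against 7.95 and 16.4%, and at 24 h 1 was higher and 7 lower, against 6.07 and 19.6%. At 12 h AOS1 (GmaAffx.86334.1.S1_at) was lower by -3.01 (SE 0.28, adjusted p = 0.000217) and AOS2 by -2.62 (SE 0.32, adjusted p = 0.000771), the time at which LOX7 and VLXB were still called higher. The 6 h count fell from 6 to 1 without 0 h replicate 2 or either 6 h array, and the 12 h count from 9 to 4 without 0 h replicate 2. Each of the 3 earlier counts fell to 0 without 0 h replicate 2 or another array, and the 24 h count stayed between 7 and 9.

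AOC6 was called at 0.5 h and 6 h in the same directions as LOX10. It was 1 of the 3 profiles most similar to LOX10, so the shared directions are no separate result. Its intensity went from 146 and 178 at 0 h to 79.9 and 89.5 at 0.5 h and 253 and 340.5 at 6 h, so both 0.5 h arrays were below and both 6 h arrays above the control pair. The changes were -0.93 at 0.5 h (SE 0.25, adjusted p = 0.106) and 0.86 at 6 h (SE 0.25, adjusted p = 0.0562). The other 3 called higher at 6 h were COI1 probe sets (0.75 to 0.90). None of the 4 LOXB1 probe sets was called against 0 h. Each still had its highest mean at 6 h, against 17% of all tested probe sets. Each also had both 6 h arrays above both 0 h arrays, against 27.8% of all. GmaAffx.89726.1.A1_s_at of LOXB1 read 750 and 1177 at 0 h and 2315 and 2279 at 6 h. On the 12 h arrays it read 1926 on replicate 1 and 19.0 on replicate 2, a spread that enters the shared estimate of its test.

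**Figure D4:**
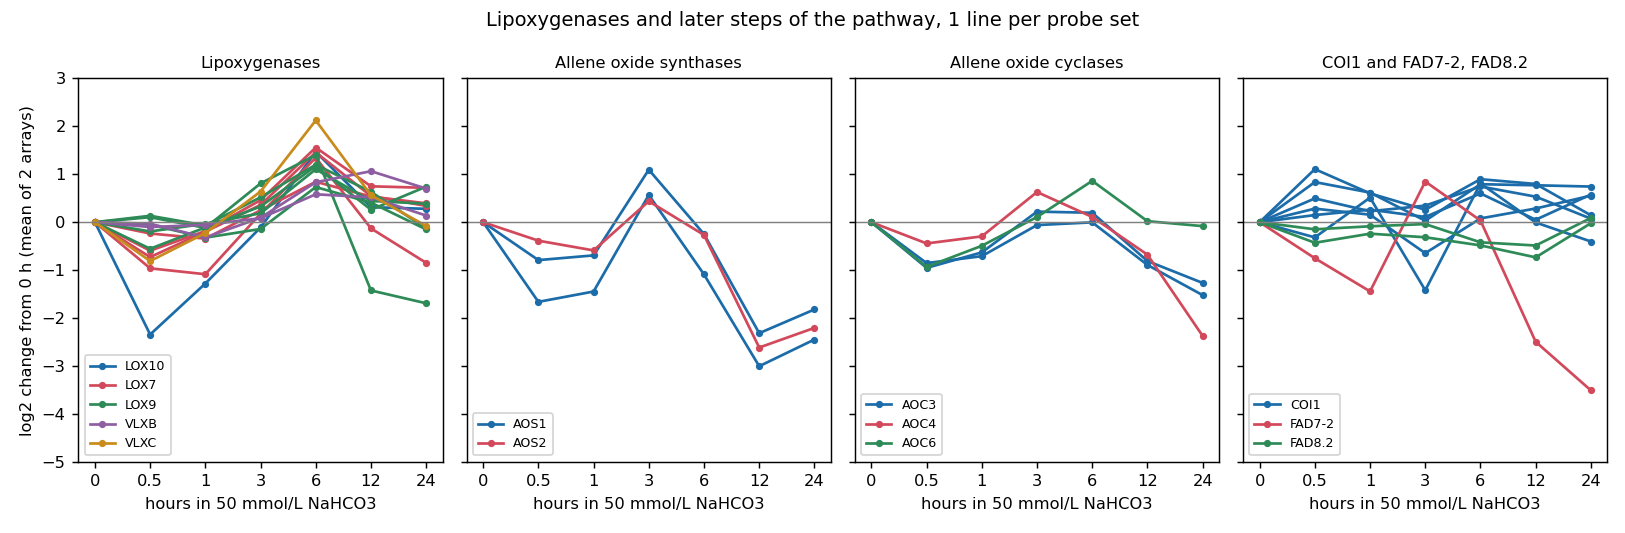
Log2 change of the mean of 2 arrays from 0 h (y axis) over hours in 50 mmol/L NaHCO3 (x axis, evenly spaced), 1 line per tested probe set, for the lipoxygenases, the allene oxide synthases, the allene oxide cyclases, and COI1 with the desaturases FAD7-2 and FAD8.2. The lipoxygenase lines lie from 0.58 to 2.12 at 6 h and from -1.42 to 1.06 at 12 h. The allene oxide synthase lines lie below 0 at 6 h and from -2.32 to -3.01 at 12 h. LOXB1 is not drawn.

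A further 5 probe sets are described as lipoxygenases in the tables of the study without a LOX or VLX symbol, and since those tables were drawn up from these arrays they are no independent evidence. At 6 h 3 of them were called higher and 1 lower, against 8.67 and 12.1% of all tested probe sets. LOC547694 (Gma.8458.1.S1_at) read 23.6 and 34.5 before stress, 51.7 and 59.3 after 3 h, 160.1 and 168 after 6 h, and 53.4 and 64.1 after 12 h. Its 3 h, 6 h and 12 h pairs all lay above the 0 h pair, with changes of 0.96, 2.52 and 1.04 (SE 0.21 each, adjusted p = 0.0404, 0.000303 and 0.00992). GmaAffx.60245.1.S1_at ran the other way, from 899 and 949 at 0 h to 471 and 495 at 6 h and 239 and 226 at 12 h. Its changes of -0.94 at 6 h (adjusted p = 0.0335) and -1.99 at 12 h (adjusted p = 0.000699) were called, so the 5 moved in both directions at 6 h.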

How the data were processed

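Root-tip RNA of 14 samples was hybridized to the Affymetrix Soybean Genome Array. The authors scanned the arrays with GCOS 1.4 and deposited linear intensities from a dChip perfect-match model, in which 1 array of each time was scaled to the common median and its partner fitted to it by invariant set. These intensities were floored at 1 and log2 transformed. No further normalization was applied. Probe sets with a mean above the 95th percentile of 23350 pathogen probe sets and a median replicate SD/mean above 0 and below 0.5 were tested (28567 of 37594). limma 3.58.1 in R 4.3.3 fitted 7 time groups to all 14 arrays (7 residual degrees of freedom), with p below 0.05, adjusted p below 0.15, and adjusted p below 0.001 for the 4-degree spline. No errors beyond n = 2 pools per time enter, and the number of arrays limits the precision. Figures were drawn with matplotlib 3.10.9.

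Gene symbols came from the platform annotation of 2016, which can be old. The rule for named probe sets took all 17 members, called probe sets of the pathway and described lists, and the 3 nearest profiles per gene. LOXB1, the probe set with 3 symbols and the values at 0.5 h and 12 h of the pathway were chosen after their values were seen. Members and lists were chosen with earlier results of these data known. Leaf, nodule and seed marker lists were read as summed intensities. The test was checked on simulated data. Alternatives were quantile normalization, median centring, a floor of 16, no filter, a replicate block, a fit to the 4 arrays compared, the methods' t-test, each array left out, and both arrays with low hybridization controls left out (chosen after seeing the data). Replicate numbers showed no pairing common to all times.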

Additional observations from a re-analysis of the deposited data

Results flagged for a closer look

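LOX10 (Gma.1.1.S1_at) was called lower at 0.5 h and higher at 6 h, and the direct contrast of 6 h against 0.5 h was 3.81 on the log2 scale (SE 0.39, limma adjusted p = 0.00043). Both 6 h arrays lay above both 0.5 h arrays. AOC6 had the same pair of opposite calls, with a contrast of 1.80 (SE 0.25, limma adjusted p = 0.00171). The pairs of times here and below were picked for opposite calls against the same 0 h arrays. Each contrast therefore joins a called rise and a called fall, so its own call followed from that choice and is no separate result. For both genes, each call against 0 h was lost without 1 or more single arrays, as given above.

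AOS1 on GmaAffx.53768.1.S1_at was called higher at 3 h and lower at 12 h and 24 h, and the 3 h level exceeded the 12 h level by 3.41 (adjusted p = 0.000403) and the 24 h level by 2.92 (adjusted p = 0.000638). FAD7-2 was called higher at 3 h and lower at 1 h, 12 h and 24 h, with contrasts of 2.29 (adjusted p = 0.0118), 3.34 (adjusted p = 0.00012) and 4.36 (adjusted p = 2.43e-05) in favour of 3 h. These contrasts share the arrays of the time they have in common, and they too are no separate result. The 3 h call on GmaAffx.53768.1.S1_at was lost without either 0 h array (0.86 and 1.33) or either 3 h array (0.83 and 1.36). On AOS1 GmaAffx.86334.1.S1_at the 3 h change (0.57, limma adjusted p = 0.248) was not called. The 3 h call of FAD7-2 was lost without 0 h replicate 1 (0.47) or either 3 h array (0.77 and 0.93). Its 1 h call was lost without 0 h replicate 2 (-1.06) or either 1 h array (-1.63 and -1.26).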

How the results depend on the processing

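No called change of a lipoxygenase or pathway probe set reversed under any alternative run. With each array left out in turn, the number of lipoxygenases called was 0 to 2 at 0.5 h, 3 to 11 at 6 h, 0 to 4 at 12 h, 0 to 4 at 24 h, 0 to 4 from 1 h to 3 h, 0 to 5 from 3 h to 6 h, 1 to 7 from 6 h to 12 h, 0 to 1 from 12 h to 24 h and 0 to 1 over the time course. For the pathway list it was 0 to 7 at 0.5 h, 0 to 2 at 1 h, 0 to 5 at 3 h, 1 to 8 at 6 h, 4 to 11 at 12 h and 7 to 9 at 24 h. The methods' t-test, on 2 arrays against 2, was run with Benjamini-Hochberg adjustment in place of the study's q value. It called 0 lipoxygenases at 0.5, 6, 12 and 24 h. Of all 28567 tested probe sets it called 0, 977, 6 and 0 at these times. At an unadjusted p below 0.05 it counted 1, 5, 1 and 0 lipoxygenases, against 9.53, 22.3, 15.3 and 17.8% of all. Without the filter the lipoxygenase counts were 6 at 6 h, 1 at 24 h and 0 from 1 h to 3 h, and the pathway counts 2, 0 and 1 at 0.5, 1 and 3 h. Quantile normalization gave 5 lipoxygenases at 12 h, 4 at 24 h, 5 from 1 h to 3 h and 1 over the time course, and 2 pathway probe sets at 3 h. Median centring gave 5 from 1 h to 3 h, and a floor of 16 gave 2 at 0.5 h. A fit to the 4 arrays compared gave 1 at 3 h, 1 at 12 h, 1 from 1 h to 3 h, 8 from 3 h to 6 h and 1 from 12 h to 24 h, and for the pathway 0, 0 and 10 at 0.5, 1 and 6 h. Leaving out both arrays with low hybridization controls gave 12 at 6 h, 1 at 12 h, 4 from 6 h to 12 h and 1 from 12 h to 24 h, and 2 and 1 pathway probe sets at 0.5 and 1 h. The cause of these moves was not tested.

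The replicate block gave 2 lipoxygenases at 0.5 h and 0 pathway probe sets at 1 h, and lost the 24 h call of VLXB (adjusted p = 0.164). Replicate differences correlated from -0.35 to 0.30 over 21 pairs of times and above 0.1 in 6. The numbers thus showed no pairing common to all times, while pairing at some of the times was not excluded. At 6 h all 13 lipoxygenases were higher under every scaling, with medians of 1.20, 1.26 and 1.28 as deposited, with quantile normalization and with median centring. At 24 h the median of all tested probe sets was -0.13, 0.01 and 0.06 under these, and 8, 11 and 11 of the 13 were higher. With 2 arrays per time, changes that were small against the spread of their probe set were not detectable.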
